A study of Mus musculus with 12 samples.

Results

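This is an account of 10 genes for mesenchymal identity transcription factors, Twist1, Twist2, Prrx1, Prrx2, Snai1, Snai2, Zeb1, Zeb2, Tcf21 and Tcf4, out of 27179 gene IDs counted. They were chosen by symbol and matched to the Entrez IDs of the count tables; all 10 were found. The cells were NIH3T3, a permanent line of mouse embryo fibroblasts, with the genotype RelA-/- and a Rela-DsRed reporter, in which the NF-κB protein p65 is joined to a red fluorescent protein. The polyA RNA libraries analysed here, 3 in number, came from such cells exposed to IL-1β at 0.2 ng/mL for 2 h in microfluidic devices. For 9 further samples (LPS at 100 ng/mL, PAM at 0.2 ng/mL, and media) the tables hold a copy of IL-1 replicate 3, and they were not used. No treated sample was therefore compared with an untreated one, and every value below is a level in IL-1-treated RelA-/- Rela-DsRed cells. The labels do not give the promoter that drives the reporter or say whether the line is 1 clone.

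The factors belong to 4 structural families. TWIST1, TWIST2 and TCF21 are basic helix-loop-helix (bHLH) proteins that bind DNA at E-boxes as dimers with an E protein, of which TCF4 is one. ID proteins lack the basic region and take E proteins out of such dimers. SNAI1, SNAI2, ZEB1 and ZEB2 are zinc finger repressors of epithelial genes, best known for their part in epithelial-mesenchymal transition. PRRX1 and PRRX2 are paired-related homeodomain proteins of limb and craniofacial mesenchyme.

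The libraries held 17254518, 18091073 and 18578859 counts. Fibroblast markers were present, with 12 of 14 at 1 CPM (the gene's counts per 1000000 counts of the library) or more in every library, although Fap had 0 counts and Lum 10, 21 and 2. None of 8 epithelial markers reached that level, nor did 6 of 7 endothelial, 7 of 8 skeletal muscle and 5 of 7 adipocyte markers. Of 11 macrophage markers 5 (45.5%) reached it, with a summed level of 22.6 to 31.8 CPM, while Ptprc had 3, 0 and 6 counts. For comparison, 51.1% of protein-coding genes and 41.3% of all gene IDs reached that level, so the macrophage share was near the background. Whether separate cultures gave rise to the 3 libraries is not stated in the labels; the SD and p-values below may measure technical spread alone.

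Transcripts of 9 of the 10 factors reached 1 CPM in each library, and those of Tcf21 were not detected. The same level was reached by 41.3% of all gene IDs and by 51.1% of protein-coding genes. Within the families, Twist2 exceeded Twist1, Prrx1 exceeded Prrx2 and Zeb1 exceeded Zeb2 in every library, whereas Snai1 and Snai2 stood at about the same level per kb. Levels of different genes are compared as CPM per kb of merged exons, the union of all exons of the gene in GENCODE M21, since fragments of the whole transcript were sequenced and a longer transcript gives more of them. On that scale the order was Snai1, Snai2, Prrx1, Twist2, Zeb1, Twist1, Tcf4, Prrx2 and Zeb2. The ranges over libraries overlapped for Snai1 and Snai2 and for Twist1 and Tcf4. The other neighbours in this order did not overlap. Per kb of the longest transcript Prrx1 came first, and Tcf4 stood above Zeb1 and Twist1 without overlap. On that scale Snai1 and Snai2 again overlapped. So did Prrx2 and Zeb2, with the lowest library of Prrx2 at 1.38 and the highest of Zeb2 at 1.72 CPM per kb. Per kb of the median coding transcript (the median length of a gene's coding transcripts), a scale chosen after seeing the data, the order changed. Zeb1 (127), Prrx1 (112) and Tcf4 (109 CPM per kb) then stood above Snai1 (66.4) and Snai2 (63.9).

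**Figure D1:**
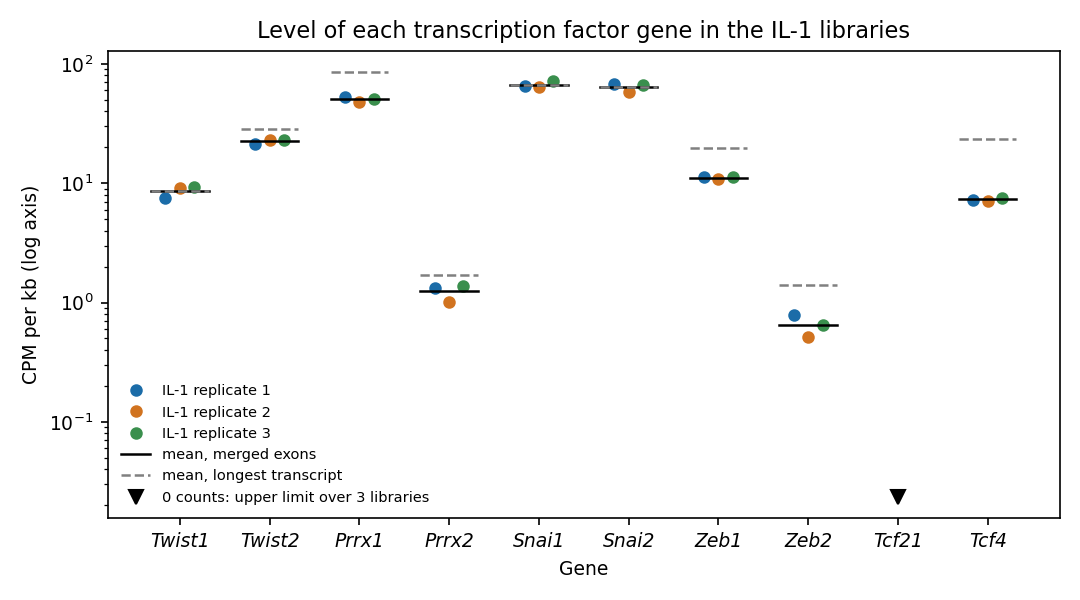
Level of each gene in CPM per kb (log axis) in each of the 3 IL-1 libraries, as points, with the mean per kb of merged exons (black line) and per kb of the longest transcript (dashed grey line); the triangle marks the upper limit for Tcf21, which had 0 counts. Snai1, Snai2 and Prrx1 lie highest, and Prrx2 and Zeb2 lie lowest among the detected genes.

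Of the bHLH genes, Twist2 carried most of the TWIST transcript. Twist1 (chromosome 12, 33957671 to 33959831, GRCm38) had 210, 270 and 279 counts in replicates 1 to 3, or 12.2, 14.9 and 15.0 CPM. Twist2 (chromosome 1, 91801461 to 91848034) had 1172, 1323 and 1344 counts, or 67.9, 73.1 and 72.3 CPM. Both were lowest in replicate 1, and no library of Twist1 came near any of Twist2. Per kb, Twist1 was at 8.62 ± 0.993 (SD, n = 3) and Twist2 at 22.4 ± 0.884 CPM. The level of Twist2 was 2.61-fold that of Twist1 (log2 ratio of Twist1 over Twist2 -1.38 ± 0.12, SD), in the same direction in all 3 libraries. An exact sign-flip permutation test over 3 libraries gave p = 0.25 (two-sided), the smallest that it can give, so no pair could pass 0.05. Twist2 thus took 72.3% of the pair per kb of merged exons, 76.6% per kb of the longest transcript and 83.6% of the counts with no length correction.

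One limit touches Twist2. GENCODE places the noncoding gene Gm29100 on the opposite strand, over 46.5% of the exon bases of Twist2, and it has no Entrez ID in the gene table used. The library kit named in the labels does not mark strand and no strand setting is given, so reads of Gm29100 and Twist2 cannot be told apart. The paralogs themselves shared no stretch of 50 bases in any pair, so reads of that length would not be split between them.

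The sequences before the start sites of the TWIST genes are shown because both genes were transcribed, at different levels, in the same cells. They are the 250 bases upstream of the RefSeq start on the gene's strand (GRCm38.p6), at chr12:33957421-33957670 (+) for Twist1 and chr1:91801211-91801460 (+) for Twist2. CpG dinucleotides are in capitals.
Twist1: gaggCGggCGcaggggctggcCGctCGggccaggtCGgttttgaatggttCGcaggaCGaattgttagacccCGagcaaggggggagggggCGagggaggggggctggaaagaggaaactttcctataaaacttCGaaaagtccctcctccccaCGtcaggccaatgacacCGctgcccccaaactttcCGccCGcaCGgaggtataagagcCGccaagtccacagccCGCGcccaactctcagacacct
Twist2: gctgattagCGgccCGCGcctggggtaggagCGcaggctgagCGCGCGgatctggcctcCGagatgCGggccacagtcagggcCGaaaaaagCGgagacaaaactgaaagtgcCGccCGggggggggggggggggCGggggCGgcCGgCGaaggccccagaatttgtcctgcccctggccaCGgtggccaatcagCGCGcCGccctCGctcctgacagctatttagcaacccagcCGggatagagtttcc
The Twist1 window held 18 CpG and that of Twist2 held 23, against a median of 6 over 32851 promoter windows in the table. The letters TATAAA, searched on both strands, occurred in the Twist1 window, 126 to 121 bases before the start, and not in that of Twist2; 12.4% of all windows hold them. Exons of Gm29100 cover the whole Twist2 window. These matches describe the letters only.

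Tcf21, a bHLH factor of fibroblast and epicardial lineages (chromosome 10, 22817263 to 22820143), had 0 counts in every library. With 3 counts taken as the upper limit, the 3 libraries together (53924450 counts) allow up to 0.0556 CPM. In 1 library this is 0.161 to 0.174 CPM. The exact two-sided 95% Poisson interval over the 3 libraries reaches 0.0684 CPM. These limits cover counting error only. Msc, the musculin gene and a close relative of Tcf21, had 1, 0 and 0 counts. Of 17 other tissue-restricted bHLH genes listed, only Scx, the scleraxis gene of tendon progenitors, reached 1 CPM in each library, at 130, 178 and 196 counts or 4.64 ± 0.785 CPM per kb. That is 5.88% of the list, against 51.1% of protein-coding genes. Ferd3l, Tcf24, Myog and Ptf1a had no count at all. The myogenic factor gene Myf5 had 16, 14 and 8 counts, and Myod1, the myoblast determination gene, 1, 0 and 0. In summed CPM per kb, the list without the TWIST genes came to 5.25 ± 0.440, below Twist1 alone.

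Tcf4, the E protein gene (chromosome 18, 69343429 to 69687967), had 3433, 3530 and 3825 counts, or 199, 195 and 206 CPM. It varied little between libraries, with a coefficient of variation of 2.73%, against 1.67% from counting alone. The gene is long and has many isoforms, with 46 coding transcripts in GENCODE, so its level per kb depends on the length used. Per kb of merged exons (27382 bases) its level was 7.30 ± 0.199 CPM, and per kb of its longest transcript (8577 bases) at 23.3 ± 0.635 CPM. Gene counts do not show which isoforms were made.

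All 3 E protein genes were detected. Tcf3, which encodes E12 and E47, reached 16.9 ± 1.48 CPM per kb of merged exons and Tcf12, which encodes HEB, at 8.35 ± 0.195. Tcf4 made up 22.5% ± 0.494 (SD, n = 3) of their summed level and Tcf3 51.8% ± 2.09. Per kb of the longest transcript the 3 genes were nearly even, with Tcf4 at 34.8% ± 0.330 and Tcf3 at 34.4% ± 1.82. Which E protein gene was highest therefore turns on the transcript length assumed. The TWIST genes together reached 0.956 ± 0.0760 of the summed level of the E protein genes per kb of merged exons. Per kb of the longest transcript they reached 0.550 ± 0.0364 of it.

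All 4 ID genes were detected too, and Id3 was far above the rest. It had 2359, 2509 and 2704 counts, or 78.3 ± 2.59 CPM per kb, which is above each of the 10 factors on that scale. Id1 was at 14.3 ± 1.71, Id2 at 6.01 ± 1.88 and Id4 at 4.09 ± 1.01 CPM per kb. Id3 made up 76.3% ± 1.99 of the summed ID level. That sum was 3.16 ± 0.176 times the summed level of the E protein genes per kb of merged exons. Per kb of the longest transcript it was 2.02 ± 0.0861 times that level. The ID sum was the higher in all 3 libraries on both scales. This ratio was not computed per kb of the median coding transcript, where Tcf4 alone was at 109 CPM. Id2 spread most, with 215, 360 and 215 counts.

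The symbol Tcf4 is also an older name for Tcf7l2, an HMG-box effector of WNT signalling that is unrelated to the bHLH gene. Tcf7l2 had its own Entrez ID and stood at 512, 577 and 629 counts, or 3.62 ± 0.238 CPM per kb, below Tcf4 in every library. Among its relatives, Tcf7l1 was at 1.49 ± 0.293 and Lef1 at 1.02 ± 0.0716 CPM per kb, and Tcf7 had 15, 14 and 10 counts, under 1 CPM.

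The PRRX pair was the most uneven. Prrx1 (chromosome 1, 163245119 to 163315145) had 10061, 9620 and 10344 counts, or 583, 532 and 557 CPM, the highest CPM of the 10 genes. Prrx2 (chromosome 2, 30845064 to 30881251) had 45, 36 and 50 counts, or 2.61, 1.99 and 2.69 CPM. Every library of Prrx1 lay far above every library of Prrx2. Prrx1 was at 50.4 ± 2.32 and Prrx2 at 1.24 ± 0.195 CPM per kb, a 40.5-fold difference (log2 ratio 5.34 ± 0.19, SD, n = 3). The exact sign-flip permutation p was 0.25, again the smallest possible. Prrx1 took 97.6% ± 0.299 of the pair per kb of merged exons and 98.1% ± 0.242 per kb of the longest transcript. Without length the difference was 229-fold, since the merged exons of Prrx1 span 11066 bases and those of Prrx2 1961. Prrx2 still passed 1 CPM in each library, although 13.9% of the 10711 detected protein-coding genes were below it per kb; 89.1% were below Prrx1.

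**Figure D2:**
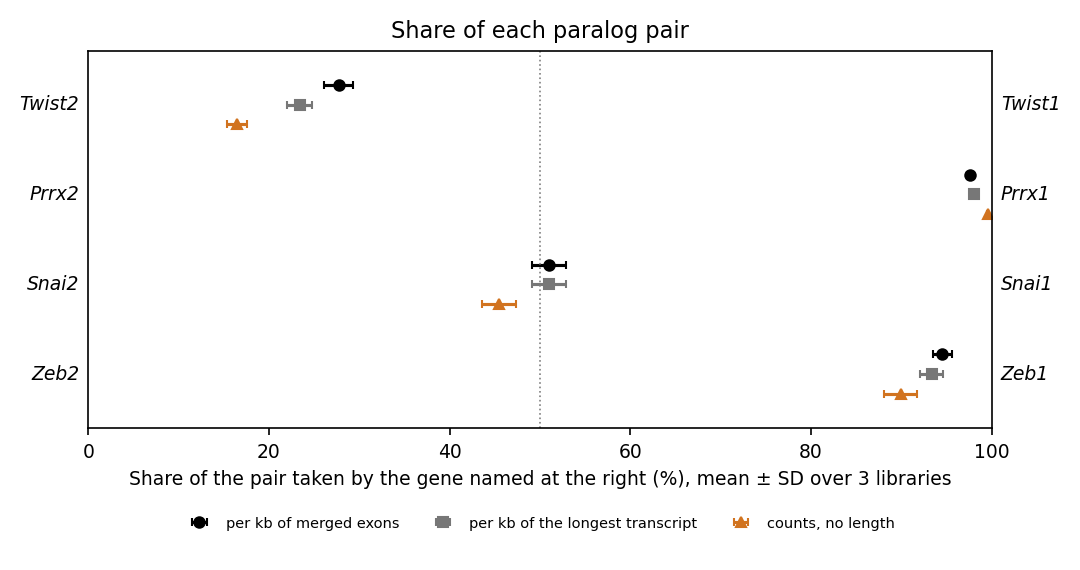
Share of each paralog pair (%) taken by the gene named at the right, as the mean ± SD over 3 IL-1 libraries, per kb of merged exons (circles), per kb of the longest transcript (squares) and in counts without length (triangles); the dotted line marks an even split. Prrx1 and Zeb1 take 89.9% or more of their pairs on each scale, Twist2 the larger part of its pair, and the SNAI pair lies close to the even split on either side.

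The SNAI genes were both abundant. Snai1 (chromosome 2, 167538195 to 167542814) encodes SNAIL and had 1807, 1863 and 2141 counts, or 105, 103 and 115 CPM. Snai2 (chromosome 16, 14705852 to 14709395) encodes SLUG and had 2360, 2105 and 2496 counts, or 137, 116 and 134 CPM. Snai1 was at 66.4 ± 4.09 and Snai2 at 63.9 ± 5.52 CPM per kb. Snai1 was 1.04-fold Snai2 (log2 ratio 0.06 ± 0.11, SD, n = 3), below it in replicate 1 and above it in replicates 2 and 3, and the difference did not exceed the spread between libraries (exact sign-flip permutation, two-sided, p = 0.50). Without length the order turned, with Snai2 at 54.5% of the counts and above Snai1 in every library, because its transcript has 2021 bases against 1621. Each gene has 1 coding transcript in GENCODE, so the choice of isoform does not enter. Per kb, 91.8% of detected protein-coding genes were below Snai1 and 91.5% below Snai2.

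Their relative Snai3 was low, with 69, 71 and 60 counts, or 2.28 ± 0.261 CPM per kb, which is 1.73% ± 0.277 of the 3 SNAI genes. Scrt1 and Scrt2, the neural members of the superfamily, had no count. The Snai1 start region is shown because SNAI and ZEB proteins bind the E-box CACCTG, searched here on both strands. It is the 250 bases upstream of the RefSeq start on the gene's strand, at chr2:167537945-167538194 (+), GRCm38.p6, with CpG in capitals.
Snai1: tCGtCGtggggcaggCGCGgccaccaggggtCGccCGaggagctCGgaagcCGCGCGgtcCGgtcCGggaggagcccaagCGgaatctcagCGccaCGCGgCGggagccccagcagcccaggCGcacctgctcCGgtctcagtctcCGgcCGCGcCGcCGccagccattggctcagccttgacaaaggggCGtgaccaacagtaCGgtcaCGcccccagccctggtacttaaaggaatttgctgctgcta
This window held 27 CpG, more than 91.4% of all windows, and 1 match to CACCTG, 126 to 121 bases before the start. Such a match occurs in 17.2% of all windows. Windows of 7 of the 10 genes were matched by Entrez ID, with 10 windows in all; Snai2, Zeb1 and Tcf4 were not matched. The other 9 windows held no CACCTG on either strand. A κB-like motif, searched on both strands, occurred in 0 of the 10 windows, and 1.41% of all windows hold it. The Prrx1 window held 4 CpG and that of Prrx2, the lower gene, held 21, whereas in the TWIST pair the higher gene had more CpG. Both PRRX windows overlap exons of another transcript of their own gene.

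Zeb1 was the main ZEB gene. Zeb1 (chromosome 18, 5591327 to 5775468) had 1994, 2031 and 2143 counts, or 116, 112 and 115 CPM. Zeb2 (chromosome 2, 44983512 to 45117442) had 271, 184 and 238 counts, or 15.7, 10.2 and 12.8 CPM. Zeb1 was nearly level across libraries, and Zeb2 was highest in replicate 1 and lowest in replicate 2, with no overlap between the genes. Zeb1 was at 11.1 ± 0.180 and Zeb2 at 0.647 ± 0.139 CPM per kb, a 17.5-fold difference (log2 ratio 4.13 ± 0.29, SD, n = 3; exact sign-flip permutation p = 0.25, the smallest possible). Zeb1 took 94.5% ± 1.04 of the pair per kb of merged exons and 93.3% ± 1.26 per kb of the longest transcript. Without length it was 8.99-fold higher. The antisense gene Zeb2os, which covers 3.27% of the exon bases of Zeb2, had 0, 1 and 1 counts, and Gm10125, opposite 1.93% of those of Zeb1, had 2, 3 and 1.

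The genes listed as corepressors of SNAI and ZEB proteins were all detected, 19 of 19, against 51.1% of protein-coding genes. Their median was 9.69 CPM per kb, against 6.93 over detected protein-coding genes. The arginine methyltransferase gene Prmt5 was at 49.6 ± 2.55, the deacetylase gene Hdac2 at 46.7 ± 0.0720, Ctbp1, whose product binds ZEB proteins, at 26.8 ± 2.96 and the H3K9 methyltransferase gene Setdb1 at 18.7 ± 1.25 CPM per kb. Of 16 genes that control SNAI1 protein turnover, 15 (93.8%) were detected, against 51.1% of protein-coding genes. The highest were the COP9 signalosome gene Cops2 at 94.3 ± 3.41, the casein kinase gene Csnk1a1 at 50.5 ± 2.27 CPM per kb, followed by the lysyl oxidase-like gene Loxl3, with 1834, 1380 and 1474 counts, and the F-box gene Fbxl5, with 2663, 2789 and 2931 counts. Gsk3b, the kinase that marks SNAI1 for degradation, stood at 12.7 ± 0.706.

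ZEB transcripts are textbook targets of the miR-200 family, microRNAs of epithelial cells. The mature sequences are shown to relate the ZEB 3′ UTRs to that family, with the seed (bases 2 to 8) in capitals, from RefSeq on GRCm38.p6. The first 3 share the seed AAUACUG and the last 2 the seed AACACUG.
miR-200b-3p: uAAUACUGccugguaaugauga
miR-200c-3p: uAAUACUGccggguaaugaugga
miR-429-3p: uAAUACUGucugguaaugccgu
miR-200a-3p: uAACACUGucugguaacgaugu
miR-141-3p: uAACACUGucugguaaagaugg
In the longest 3′ UTR of each gene in GENCODE M21, the match to the first seed, CAGTATT, occurred 5 times in Zeb1 (2401 bases) and 5 times in Zeb2 (4941 bases). The match to the second, CAGTGTT, occurred 4 times in each. Of 21016 genes with a 3′ UTR, 13.3% held CAGTATT and 17.2% held CAGTGTT at least once. Shares were also taken among 3′ UTRs of 0.8 to 1.25 times the length, 2873 for Zeb1 and 1094 for Zeb2, the gene's own included. Of these, 0.035% held at least as many CAGTATT as Zeb1 and 0.274% at least as many as Zeb2. For CAGTGTT these shares were 0.174% and 1.74%. Snai1, Snai2 and Tcf4 held 1 CAGTATT each, Tcf4 held 2 CAGTGTT and Snai2 held 1, and the TWIST and PRRX genes and Tcf21 held neither. The 5 CAGTATT matches of Zeb2 are shown with their flanks, the match in capitals, numbered from the start of the 3′ UTR.
Zeb2 match 1: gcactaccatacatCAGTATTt
Zeb2 match 2: gcactacagtgcatCAGTATTa
Zeb2 match 3: tgaagcacccgtgtCAGTATTa
Zeb2 match 4: ttcattaattttgtCAGTATTa
Zeb2 match 5: catactgtagtgtaCAGTATTa
The first starts at base 393 and the last ends at base 1045. The hairpin genes Mir200a, Mir200b, Mir200c, Mir141 and Mir429 had 0 counts in every library, which in polyA libraries says nothing of mature microRNA levels.

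Most of the epithelial genes listed as repressed by SNAI and ZEB proteins were scarcely transcribed. Whether these factors repress them in these cells was not tested. Epcam, Cdh1, Krt8, Krt18, Krt19 and Cldn4 are also among the epithelial markers counted above. Of 30 listed, 7 (23.3%) reached 1 CPM in each library, against 51.1% of protein-coding genes. The median of the list was 0.0277 CPM per kb, against 0.450 over all protein-coding genes. Cdh1, the E-cadherin gene and best known target, had 6, 2 and 1 counts. Epcam had 0, 1 and 0, Krt8 4, 1 and 6, and the splicing regulator genes Esrp1 and Esrp2 1, 0 and 1 and 5, 1 and 1. Crb3, Cldn3, Cldn4, Krt18 and Spint2 had none. The 7 detected genes encode parts of junctions or polarity complexes: Tjp1 was at 5.36 ± 0.674 CPM per kb, Pals1 at 4.04 ± 0.184, Jup at 2.69 ± 0.723, Pkp3 at 2.05 ± 0.385, Pkp2 at 2.02 ± 0.312, Cdh3 at 1.43 ± 0.337 and Cldn1 at 0.518 ± 0.139. Of 14 epithelial transcription factor genes only Klf5 reached 1 CPM in each library, at 4.32 ± 0.336 CPM per kb. Grhl2, whose product opposes ZEB1, had 10, 0 and 7 counts, Ovol1 1, 7 and 1, and Ovol2 none.

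**Figure D3:**
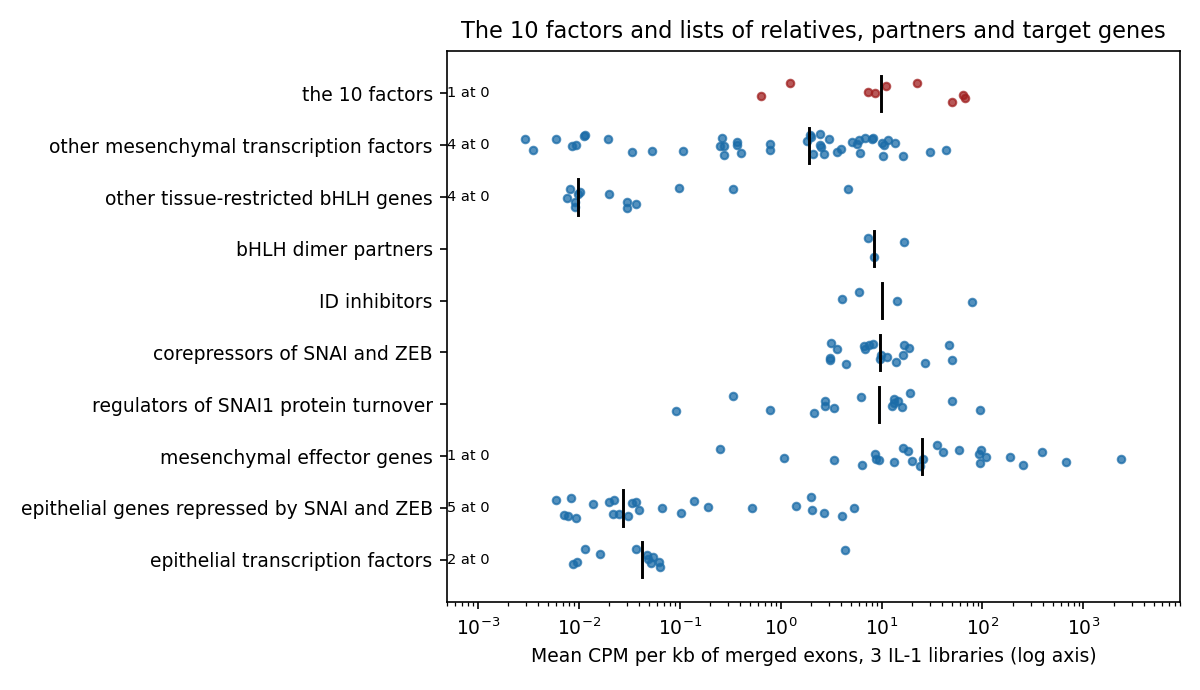
Mean CPM per kb of merged exons (log axis) of the 10 factors (red) and of the genes of 9 lists (blue), 1 point per gene, with the list median as a bar and the number of genes at 0 counts at the left. Prrx2 (1.24) and Zeb2 (0.647 CPM per kb) lie below every dimer partner, ID gene and corepressor, the lowest being Rcor1 at 3.08. Tcf21 had 0 counts. The other factors lie within the range of the ID genes, 4.09 to 78.3 CPM per kb, and Tcf4 is itself on the dimer partner list. Most epithelial genes lie far lower than the detected factors.

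Mesenchymal effector genes were mostly high. Of 26 listed, 24 (92.3%) were detected, against 51.1% of protein-coding genes. The median of the list was 25.1 CPM per kb, against 0.450 over all protein-coding genes and 6.93 over the detected ones. All 14 fibroblast markers counted above are also on this list, so its result in part repeats theirs. S100a4, a calcium-binding protein gene, was at 2377 ± 264 CPM per kb, the intermediate filament gene Vim at 667 ± 16.2, the matrix glycoprotein gene Sparc at 392 ± 6.69 and the integrin β1 gene Itgb1 at 254 ± 10.8. N-cadherin, Cdh2, stood at 2011, 1795 and 2014 counts against the 6, 2 and 1 of Cdh1. The exceptions were Fap and Lum, named above.

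Among 60 mesenchymal transcription factor genes, the 10 and 50 others, Snai1, Snai2 and Prrx1 held ranks 1, 2 and 3 per kb of merged exons. Twist2 ranked 6, Zeb1 10, Twist1 14, Tcf4 17, Prrx2 34 and Zeb2 37. Per kb of the longest transcript Prrx1 moved to rank 1 and Tcf4 to rank 8. The 10 and the 50 others were listed with earlier results of these data known, so the contrast between them is descriptive only. Of the 50 others, 33 (66.0%) reached 1 CPM in each library, against 51.1% of protein-coding genes. Their median was 1.89 CPM per kb, against 9.88 for the 10. The highest were Osr1, an odd-skipped factor of connective tissue, at 43.9 ± 2.05, the AP-1 gene Fosl1 at 30.1 ± 0.336 and the aristaless-like homeobox gene Alx1 at 16.4 ± 0.636 CPM per kb. Sox11, Tbx2, Meox2 and Dlx6 had no count.

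**Figure D4:**
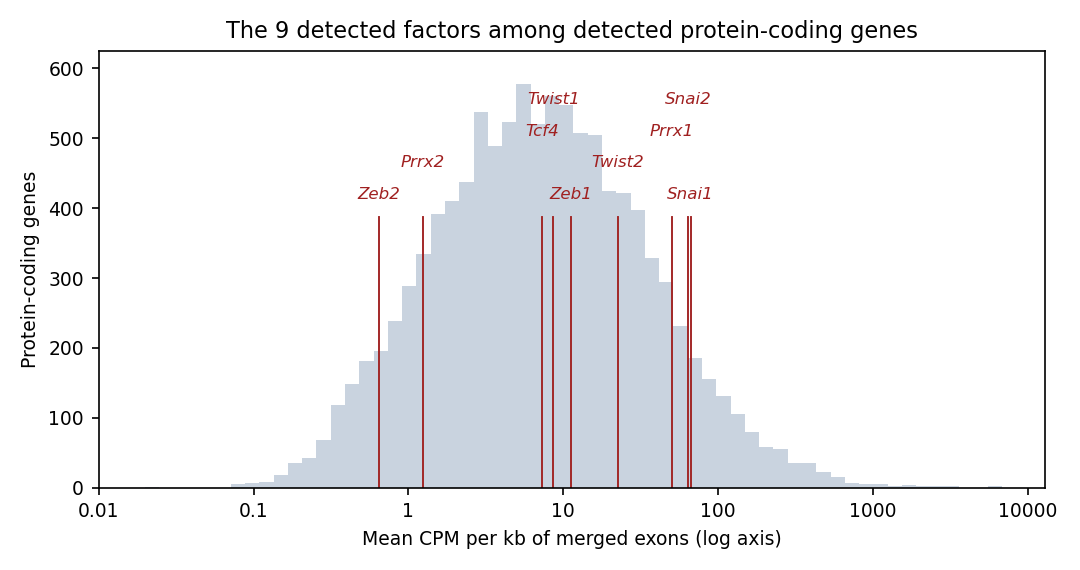
Distribution of the mean CPM per kb of merged exons (log axis) over 10711 protein-coding genes at 1 CPM or more in every IL-1 library, with the 9 detected factors marked. Of these factors 7 lie above the median of the distribution, 6.93 CPM per kb, and Prrx2 and Zeb2 lie below it.

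Of the detected factors 7 thus stood above the median detected protein-coding gene, Tcf4 only just, with 51.2% of genes below it, and Zeb2 was lowest, with 6.68% below. Per kb of the longest transcript 70.8% were below Tcf4.

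Spread between the libraries differed from gene to gene. The coefficient of variation was lowest for Zeb1, at 1.61%, under the 2.21% that counting alone gives, and highest for Zeb2, at 21.5% against 6.58% from counting. Prrx2 varied by 15.8%, close to the 15.1% from counting. Snai2 varied by 8.64%, Snai1 by 6.16%, Prrx1 by 4.61% and Twist2 by 3.94%, each above its counting error. The median detected gene varied by 8.56%, and 5 of the 9 factors lay below that. Of the 9, 7 were lowest in replicate 2, where 41.9% of all detected genes were lowest, 2 were lowest in replicate 1 (30.2% of all detected genes) and 0 in replicate 3 (27.9%). With TMM factors, which correct for composition, 4 were lowest in replicate 2 (35.1% of all detected genes), 5 in replicate 1 (37.1%) and again 0 in replicate 3 (27.9%). The count for replicate 2 thus moved with the scaling, and that for replicate 3 did not.

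**Figure D5:**
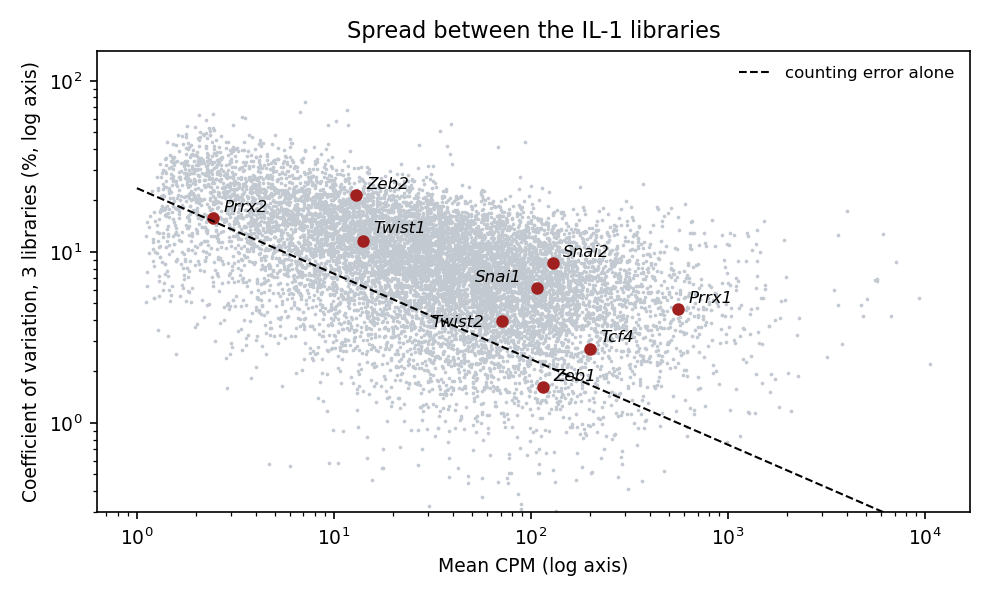
Coefficient of variation over the 3 IL-1 libraries (%, log axis) against mean CPM (log axis) for detected protein-coding genes (grey), with the 9 detected factors in red and the spread expected from counting error alone as a dashed line. Prrx2 lies close to the line, Zeb1 below it and the other detected factors above it.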

How the data were processed

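The authors deposited 1 table of raw counts per Entrez gene ID for each sample, with no normalization. CASAVA, STAR and featureCounts were used with mm10, per the submitters' processing notes; the sources used here give no versions, gene annotation or strand setting, nor how reads with several matches were treated. The labels' protocols mention no molecular identifiers, so intervals and limits cover counting error only.

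Tables were compared by file checksum and count by count: IL-1 replicate 3 recurs in all 9 tables of the other groups. CPM used each library's total count. Symbols, positions and promoter windows came from RefSeq tables of GRCm38.p6, on which mm10 is based, by Entrez ID (25275 of 27179 matched), and lengths and 3′ UTRs from GENCODE M21. Detected means at least 1 CPM in each of the 3 libraries. For log2 ratios 0.5 count was added to both genes, and the planned test was an exact sign-flip permutation over libraries, two-sided. TMM and relative log expression factors came from edgeR 4.0.16 in R 4.3.3, tested on simulated data; Python 3.11.15, numpy 2.4.6, pandas 2.3.3 and scipy 1.17.1 did the rest. Named were the 10 genes and up to 4 genes of each other list with the highest CPM per kb, all genes of short lists; other names were chosen after their values were seen, and some results are not reported here. Likeness of pattern was not ranked, as 3 libraries of 1 condition hold none. The members and lists were chosen with earlier results of these data known.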

Additional observations from a re-analysis of the deposited data

How the results depend on the processing

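The planned test of IL-1 against media, with and without a replicate block and with DESeq2, was not run. No paired analysis was possible because distinct counts exist here for 1 group. Length was the choice that moved the paralog ratios, by construction. Per kb of the longest transcript, the log2 ratio was -1.71 for Twist1 over Twist2, 5.66 for Prrx1 over Prrx2 and 3.82 for Zeb1 over Zeb2. With no length it was -2.34, 7.84 and 3.17, and for Snai1 over Snai2 it reversed to -0.26. With the median coding transcript, an alternative chosen after seeing the data, it was -2.10 for the TWIST and 5.85 for the PRRX pair. A minimum of 2 CPM left 3 of 5 macrophage markers detected. Adding 3 counts, and leaving out each library in turn, kept every ratio within 1 SD and its direction. A minimum of 2 CPM left 8 factors detected, without Prrx2; a minimum of 0.5 CPM, other scaling factors and leaving out a library left 9. All 50 recomputed CPM means of single factors lay within 1 SD, which leaving out 1 of 3 libraries cannot exceed. Depth limits genes below 1 CPM, for which a library holds few reads.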

Other observations

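Some other paralogs on the lists of corepressors, SNAI1 regulators and other mesenchymal transcription factors also stood at unequal levels. These pairs were picked for that difference after their values were seen, they were not tested, and no count over all pairs was made. Per kb of merged exons, the deacetylase gene Hdac2 was at 46.7 ± 0.0720 (SD, n = 3) and Hdac1 at 3.19 ± 0.575 CPM; whether near-identical copies share reads with them was not tested. Ctbp1 was at 26.8 ± 2.96 and Ctbp2 at 3.61 ± 0.321, the kinase gene Gsk3b at 12.7 ± 0.706 and Gsk3a at 0.785 ± 0.240, and Loxl2 at 0.0930 ± 0.0289, with 11, 6 and 10 counts against the 1834, 1380 and 1474 of Loxl3. Among homeobox and forkhead genes, Alx1 was at 16.4 ± 0.636 with Alx4 at 0.791 ± 0.313 CPM per kb. Foxf2 was at 5.97 ± 0.300 and Foxf1 at 8, 2 and 4 counts, and Foxc1 at 2.52 ± 0.128 with Foxc2 at 1, 3 and 1 counts. Osr1 was at 43.9 ± 2.05 and Osr2 at 0.406 ± 0.0836 CPM per kb. Meox1 was at 2.72 ± 0.243 and Meox2 had no count. Other paralogs on the same lists were closer: Tead1 was at 8.17 ± 0.356 and Tead2 at 10.5 ± 1.91, and Runx1 at 2.10 ± 0.0800 and Runx2 at 5.08 ± 0.286 CPM per kb.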
